A study of Mus musculus with 12 samples.

Results

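The germinal vesicle (GV) transcriptome of the wild-type mouse oocyte was described here from the 2 libraries labelled WT_GV, out of 12 libraries of the series. Both columns were taken by their labels alone and no other library entered any value, so nothing below is a comparison between conditions. The series covers wild-type and Alkbh5 knockout (KO) oocytes at the GV stage, after germinal vesicle breakdown and at metaphase II, and asks how loss of this RNA demethylase affects maternal RNA. The knockout was made by CRISPR removal of exon 1 and is not analysed here. The WT_GV oocytes came from C57BL/6 females of about 3 weeks that had been primed with pregnant mare serum gonadotropin, which drives follicle growth. Surrounding cumulus cells were stripped off by pipetting and the oocytes were taken before release from meiotic arrest. A library holds a pool of oocytes (10 or 20, the sources differ) from several females, so a value is an average over cells, and cells of unlike quality or stage within a pool cannot be told apart. Nothing given here ties either pool to particular animals, so the spread between the 2 libraries may be partly technical.

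A fully grown GV oocyte is arrested in the first meiotic prophase and has largely stopped transcription. It lives on RNA made during growth, which is stored, translated in steps during maturation and then removed, so the pool at the GV stage is the stock from which the egg and early embryo work. Oocytes are known for a set of gene families that few other cells use, among them the zona pellucida proteins, the subcortical maternal complex, the Obox homeobox genes and clusters of rodent F-box and PRAME-like genes.

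The libraries held 36067277 and 28627380 counts, of which 0.944% and 1.001% fell on the synthetic ERCC RNAs added to each tube. Replicate 2 stood apart by transcripts of red blood cells, which held 0.00125% of the counts of replicate 1 and 0.552% of those of replicate 2, and values are therefore given for each library. Throughout, paired values are given in the order replicate 1, replicate 2. Of 56691 genes in the table, 22857 and 23857 had at least 1 count, and 13325 reached at least 1 CPM (counts per 1000000 counts on mouse genes) in both. A gene with 0 counts can still have had up to 3 counts, equal to 0.0840 and 0.106 CPM, and this limit covers counting error only. Shares of a gene group are given as a share of counts. Levels of different genes are compared only in TPM, in which counts are divided by the summed exon length of the gene and then scaled to a total of 1000000 in each library.

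The 5 genes that mark these cells were all abundant. Ooep, a core protein of the subcortical maternal complex, reached 8177 and 5945 TPM, and Gdf9, a growth factor by which the oocyte instructs granulosa cells, 1986 and 1497 TPM. Zp3, a zona pellucida protein of the egg coat, was at 1293 and 1188 TPM. Bmp15, the X-linked partner of Gdf9, stood at 530.1 and 569 TPM and Nlrp5, also named MATER, at 358 and 440.2 TPM. All 5 were among the 1000 genes with the highest TPM, so the label oocyte was met by its markers. These genes do not single out the GV stage, and the stage in the label was not checked by them.

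Sequences are shown for genes on which the description turns. The first set gives the first 120 bases of the coding sequence of the top 2 unnamed genes and of Dppa3, with the start codon in capitals, and the first 120 bases of the longest annotated transcript of Gm3143, the leading long noncoding RNA by TPM. They were read from GENCODE M21 transcripts (GRCm38).
Dppa3 (chr6, + strand): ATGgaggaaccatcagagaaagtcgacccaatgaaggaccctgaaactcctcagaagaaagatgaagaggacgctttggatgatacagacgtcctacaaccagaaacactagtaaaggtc
Gm813 (chr16, - strand): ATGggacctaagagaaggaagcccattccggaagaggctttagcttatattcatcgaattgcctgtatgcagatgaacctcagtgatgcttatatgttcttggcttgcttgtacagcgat
E330017A01Rik (chr16, - strand): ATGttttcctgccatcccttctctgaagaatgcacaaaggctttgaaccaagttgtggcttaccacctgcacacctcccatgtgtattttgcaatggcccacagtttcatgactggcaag
Gm3143 (chr3, - strand): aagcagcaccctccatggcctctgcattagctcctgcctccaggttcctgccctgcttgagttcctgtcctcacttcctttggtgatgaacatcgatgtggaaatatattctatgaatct
None of these 4 genes shared a stretch of 100 bases with any other annotated gene. Copies with scattered mismatches were not searched for.

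The second set gives start regions, from 250 bases before to 50 bases after the annotated start, for 6 genes that stand for the main oocyte groups: an egg coat gene, a maternal complex gene, an Obox gene, the leading elongin gene and a pair from the F-box cluster of chromosome 9. They are from RefSeq on GRCm38.p6 and are written in the direction of transcription, with every CANNTG in capitals. CANNTG is the E-box, the sequence bound by helix-loop-helix factors such as FIGLA, which is needed for expression of the Zp genes.
Zp3 (chr5:135979855-135980154, + strand): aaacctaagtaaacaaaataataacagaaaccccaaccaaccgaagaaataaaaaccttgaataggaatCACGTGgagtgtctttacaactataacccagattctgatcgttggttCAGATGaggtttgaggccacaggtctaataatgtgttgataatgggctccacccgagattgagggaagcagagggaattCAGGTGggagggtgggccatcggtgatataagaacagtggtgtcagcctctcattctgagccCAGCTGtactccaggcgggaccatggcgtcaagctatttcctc
Ooep (chr9:78378539-78378838, - strand): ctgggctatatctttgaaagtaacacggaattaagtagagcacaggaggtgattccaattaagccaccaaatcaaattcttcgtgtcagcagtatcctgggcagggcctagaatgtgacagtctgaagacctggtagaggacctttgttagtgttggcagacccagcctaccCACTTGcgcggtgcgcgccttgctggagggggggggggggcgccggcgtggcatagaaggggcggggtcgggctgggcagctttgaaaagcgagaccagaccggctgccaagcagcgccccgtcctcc
Obox2 (chr7:15388601-15388900, + strand): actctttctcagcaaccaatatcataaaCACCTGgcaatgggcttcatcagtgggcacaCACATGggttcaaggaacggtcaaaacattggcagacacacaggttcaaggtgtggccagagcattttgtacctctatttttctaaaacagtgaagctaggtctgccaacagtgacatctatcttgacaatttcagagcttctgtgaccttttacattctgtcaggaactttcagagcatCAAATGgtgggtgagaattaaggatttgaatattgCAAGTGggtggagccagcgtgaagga
Elobl (chr11:88966882-88967181, - strand): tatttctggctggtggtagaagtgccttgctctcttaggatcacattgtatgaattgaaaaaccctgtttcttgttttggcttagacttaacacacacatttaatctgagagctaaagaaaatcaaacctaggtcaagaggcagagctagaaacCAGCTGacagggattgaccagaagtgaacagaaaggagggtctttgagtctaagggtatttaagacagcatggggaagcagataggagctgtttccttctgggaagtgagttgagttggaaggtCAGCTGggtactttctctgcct
Fbxw24 (chr9:109626010-109626309, - strand): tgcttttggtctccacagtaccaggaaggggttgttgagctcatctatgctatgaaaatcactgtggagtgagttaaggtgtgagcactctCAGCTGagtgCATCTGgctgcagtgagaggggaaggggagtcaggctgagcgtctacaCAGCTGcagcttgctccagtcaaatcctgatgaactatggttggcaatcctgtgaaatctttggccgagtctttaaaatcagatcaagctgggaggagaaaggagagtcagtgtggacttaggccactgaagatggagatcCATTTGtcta
Fbxw15 (chr9:109568213-109568512, - strand): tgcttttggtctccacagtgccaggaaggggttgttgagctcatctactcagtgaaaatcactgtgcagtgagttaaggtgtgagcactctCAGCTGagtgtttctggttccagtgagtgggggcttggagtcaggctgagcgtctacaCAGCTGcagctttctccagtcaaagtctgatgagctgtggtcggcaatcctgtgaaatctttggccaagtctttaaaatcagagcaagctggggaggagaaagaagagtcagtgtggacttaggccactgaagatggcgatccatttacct
The Zp3 window held 4 E-boxes, the first base of which lay 181, 134 and 55 bases before the start and at base 8 after it. Fbxw24 and Fbxw15 shared the E-boxes that begin 159 and 101 bases before the start. An E-box was present in 72.3% of all 32851 start regions of the table, in 66.0% of the 11652 regions of detected genes and in 92 of the 114 regions (80.7%) that belong to 87 oocyte-list genes, so the motif is common. TAATTG, a homeobox core like that bound by NOBOX, was in 8.00% of all regions, 5.84% of those of detected genes and 7.02% of the oocyte-list regions. TATAAA was in 13.6%, 8.43% and 7.02% in the same order, each counted on both strands. A match of letters is a description of the window and no evidence of binding.

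The counts were concentrated in few genes. A share of 25% of counts was held by 60 genes, 50% by 308 genes, 75% by 1285 genes and 90% by 3597 genes (means of both libraries). Taken alone, replicate 1 needed 310 genes and replicate 2 needed 298 to reach 50%. By TPM the pool was more concentrated still, with 50% in 158 genes. At least 1 TPM was reached in both libraries by 12233 genes, 10 TPM by 4981, 100 TPM by 1148, 1000 TPM by 167 and 10000 TPM by 4. The 20 genes with the largest shares of counts together held 13.2% and 14.2% of counts.

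**Figure D1:**
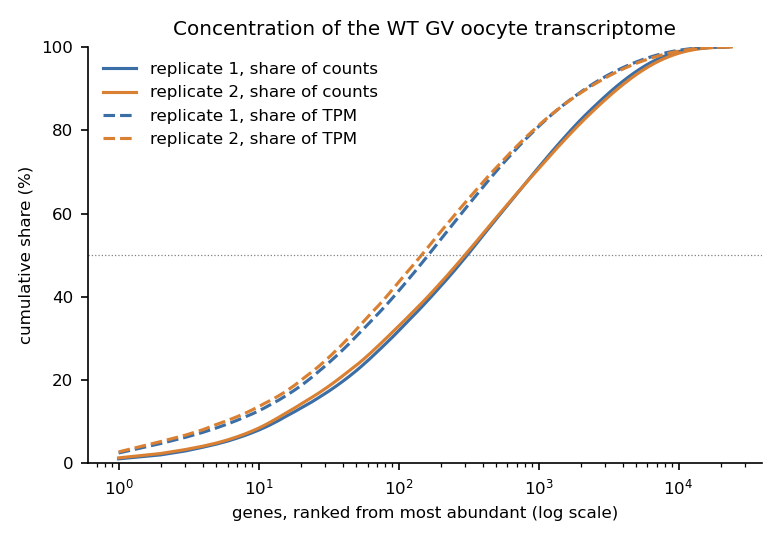
Cumulative share (%) of counts (solid lines) and of TPM (dashed lines) against gene rank on a log axis, for replicate 1 (blue) and replicate 2 (orange) of WT_GV. The lines of the 2 libraries nearly coincide, crossing 50% at 310 and 298 genes by counts.

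Dppa3, which protects maternal DNA methylation in the zygote, was the most abundant transcript on both scales. It stood at 22768 and 27529 TPM (25148 ± 3366 TPM, SD, n = 2), equal to 1.09% and 1.32% of counts. Gm813, a protein-coding gene with no descriptive name, followed at 24992 and 24864 TPM (24928 ± 90.5 TPM, SD, n = 2) and exceeded Dppa3 in replicate 1, so the order of these 2 genes was not fixed between libraries. Elobl, a gene related to elongin B, which joins substrate receptors to cullin ubiquitin ligases, came next at 14833 and 15403 TPM. E330017A01Rik, a second unnamed protein-coding gene, was at 11936 and 12592 TPM and Fbxw24, an F-box gene, at 9372 and 13114 TPM. The last pair changed places between the libraries.

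The next ranks mixed metabolic, ubiquitin and oocyte genes. Ldhb, the lactate dehydrogenase subunit of cells that use lactate, was at 10654 and 8877 TPM. The polyubiquitin gene Ubb was at 6929.6 and 8168 TPM, the F-box gene Fbxw15 at 7208 and 8344 TPM and the homeobox gene Obox2 at 7314 and 7746 TPM. Gm1821, annotated as a transcribed processed pseudogene, was at 8746 and 9564 TPM, and since 71.3% of its 100-base stretches also occur in other genes, most of them in Ubb, its level and that of Ubb (43.6% shared) are uncertain. Ooep ranked 12th by mean, and the remaining places to rank 20 were taken by the noncoding RNAs Gm3143 (7077 and 7618 TPM), Gm13180 (6334 and 6134 TPM) and Gm36159 (6021 and 6245 TPM), the processed pseudogene Gm5776 (5908 and 6491 TPM), Oosp2 (6113 and 5868 TPM), the adhesion gene Ninj2 (5584 and 6286 TPM), Mphosph6 (5341 and 6087 TPM), Dppa5a (5180.0 and 6045 TPM) and Omt2b (5369 and 5796 TPM). Of the 20 genes with the highest TPM in replicate 1, 18 were also in that set in replicate 2, and 88 of the first 100 were shared.

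**Figure D2:**
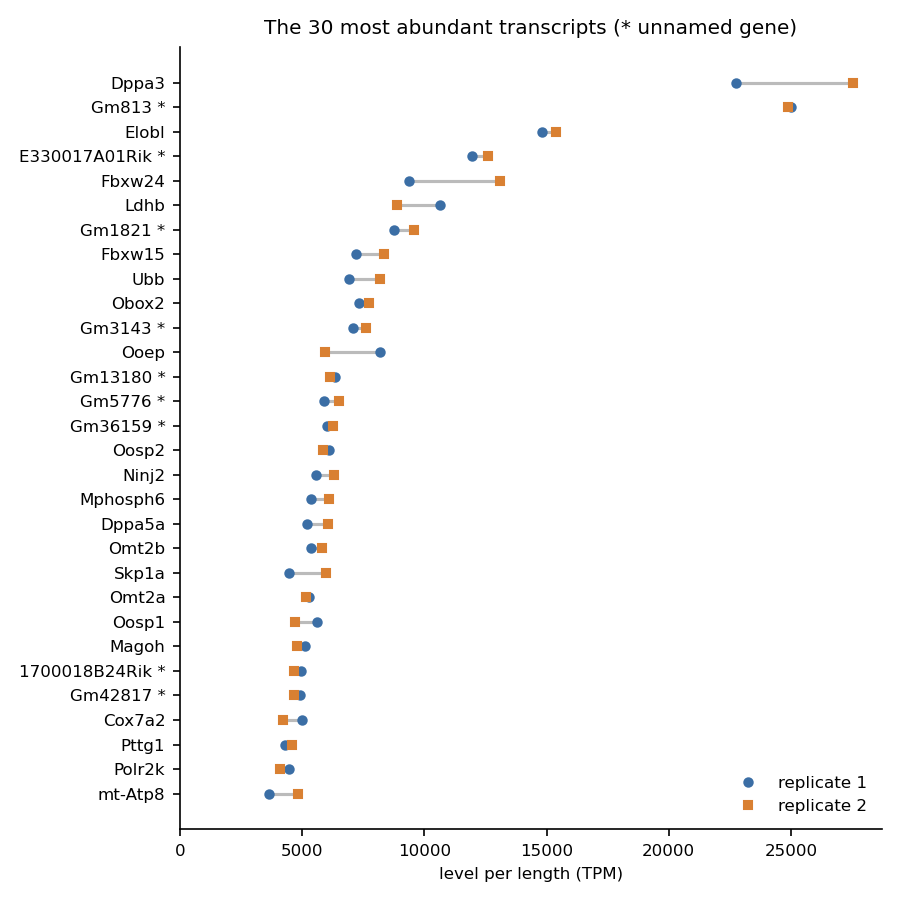
Levels (TPM) of the 30 transcripts with the highest mean, replicate 1 as circles and replicate 2 as squares joined by a grey line, with unnamed genes starred. Dppa3 and Gm813 lie at 22768 TPM or more in both libraries, and the levels of Dppa3 and Fbxw24 differ most between libraries.

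Ranked by counts, the list favoured longer transcripts. The 10 genes with the largest shares were Dppa3, Gm813, Fbxw24, Ldhb, Ooep, Mphosph6, E330017A01Rik, Ubb, Elobl and Obox2, from 1.09% and 1.32% for Dppa3 down to 0.646% and 0.686% for Obox2. Mphosph6, a protein of rRNA processing, held 0.710% and 0.811%. The 20 genes that led by counts had a median exon length of 1660.5 bases, those that led by TPM 966.5 bases, and all detected genes 3709 bases, and 13 genes were in both sets of 20. By summed exon length, the leading genes of either list were thus shorter by median than all detected genes. TPM divides by this length, so the short median of the TPM list is partly set by the measure.

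The 115 genes of the oocyte lists held 11.1% and 11.3% of counts (11.2% ± 0.0795, SD, n = 2). Of these, 111 reached 1 CPM in both libraries, 61 were among the 1000 genes with the highest TPM and 22 among the first 100. By comparison, 13325 of all 56691 genes reached 1 CPM in both. A total of 3 listed genes, Sohlh1, Nlrp4d and Obox8, had 0 counts in both libraries.

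The egg coat list of 6 genes held 0.977% and 0.902% of counts. Among zona proteins, Zp3 (1293 and 1188 TPM) and Zp2 (1087 and 1256 TPM) did not keep one order between the libraries, while Zp1, the cross-linking component, was lower at 256.2 and 221.9 TPM. The 3 oocyte-secreted protein genes of chromosome 19 were higher than any zona gene, with Oosp2 at 6113 and 5868 TPM, Oosp1 at 5601 and 4691 TPM and Oosp3 at 4162 and 3392 TPM, all lower in replicate 2. Of the secreted factors, Gdf9 was 3.75- and 2.63-fold the TPM of Bmp15, and Bmp6 (12.8 and 14.9 TPM) and Fgf8 (5.49 and 5.78 TPM) were low. Kit, the receptor for the granulosa cell ligand, was at 12.4 and 12.8 TPM.

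All 8 genes of the subcortical maternal complex list, whose proteins form a lattice under the egg membrane needed by the early embryo, were among the first 1000, and together held 1.46% and 1.18% of counts. Ooep alone made up 69.9% of the TPM of the list. Below it stood Padi6 (749 and 723 TPM), Nlrp4f (674 and 669 TPM), Zbed3 (485 and 549 TPM), Nlrp5 (358 and 440.2 TPM), Tle6 (243 and 201 TPM) and Nlrp2 (156 and 165 TPM). Khdc3 was at 526 and 136 TPM and differed more between the libraries than the other 7, so its place in the order is not settled. The transcripts of 1 complex therefore spanned a wide range of levels.

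The other NLRP genes of the oocyte were led by Nlrp14 at 1206 and 1245 TPM. Nlrp4a (409.8 and 399 TPM), Nlrp9c (324 and 364 TPM), Nlrp9b (226 and 231 TPM) and Nlrp9a (141 and 145 TPM) were also among the first 1000, and the other 5 members ranged from 0 counts for Nlrp4d to 129.6 and 130.0 TPM for Nlrp4b. The 10 genes held 0.556% and 0.579% of counts.

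Among oocyte transcription factors, Nobox was at 415 and 290.1 TPM and Figla at 78.3 and 80.0 TPM, with Lhx8 at 23.4 and 29.3 TPM and Pou5f1 at 6.80 and 3.88 TPM. Sohlh1, which acts in the primordial follicle, had 0 counts in both libraries and Sohlh2 had 164 and 118 counts. The 7 genes together held 0.0533% and 0.0406% of counts, against 1.21% and 1.26% for the 7 Obox genes, homeobox proteins of the oocyte and early embryo. Obox2 (7314 and 7746 TPM), Obox1 (3295 and 3438 TPM), Obox5 (1495 and 1453 TPM) and Obox7 (656 and 662 TPM) were abundant, Obox3 was at 10.3 and 5.22 TPM, and Obox6 and Obox8 were near or at 0. Obox1 and Obox2 overlap in the annotation and share 42.3% and 47.2% of their 100-base stretches, so the division of counts between them is uncertain.

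The 13 maternal effect and chromatin genes held 2.62% and 2.81% of counts. After Dppa3 came Dppa5a, an RNA-binding KH-domain gene (5180.0 and 6045 TPM), the histone chaperone Npm2 (3807 and 3709 TPM), the oocyte linker histone H1foo (4163 and 2721 TPM), the histone reader Spin1 (2344 and 2598 TPM) and the RNA-binding gene Zar1l (2435 and 2079 TPM). Its relative Zar1 was far lower at 181 and 166 TPM. Dnmt1, the maintenance methyltransferase, stood at 297 and 242 TPM, Dnmt3l at 42.8 and 42.9 TPM and Dnmt3a, the enzyme that sets methylation in the growing oocyte, at 2.41 and 3.59 TPM.

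The 16 genes of RNA storage and decay held 0.385% and 0.442% of counts, with 2 among the first 1000. Btg4, the adaptor that brings deadenylases to maternal RNA, stood out at 1717 and 1968 TPM, and the deadenylase Cnot7 was at 205 and 254 TPM. The remaining 14 ranged from 1.29 and 3.31 TPM for Zfp36l2 to 89.3 and 105 TPM for Dazl, with the storage proteins Cpeb1 at 71.0 and 73.1 TPM and Ybx2 at 37.8 and 40.1 TPM. In the meiotic list of 20 genes, 6 were among the first 1000. These were the kinase Aurkc (559.8 and 532 TPM), cyclin B1 (Ccnb1, 432 and 425 TPM), the arrest kinase Wee2 (281 and 289 TPM), Aurka (260.2 and 181 TPM), Mos (234 and 202 TPM) and Bub1b (141 and 146 TPM). Aurkc shared 36.8% of its stretches with other genes, so its level is uncertain. Cdk1, the catalytic partner of cyclin B1, was lower at 34.7 and 36.0 TPM, and the 20 genes together held 0.381% and 0.358% of counts.

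Of 4 fusion and calcium genes, Cd9 (296 and 301 TPM) and Astl (142 and 155 TPM) were among the first 1000 and Izumo1r, the sperm receptor, was at 142 and 75.9 TPM. The TCL1 family held 0.450% and 0.450% of counts, with Tcl1 (2140.5 and 2104 TPM), Tcl1b1 (1795 and 1692 TPM), Tcl1b2 (861 and 1031 TPM), Tcl1b3 (737 and 690.0 TPM) and Tcl1b4 (387 and 397 TPM) in the first 1000. Of the other oocyte-enriched genes, 13 of 14 were in that set. They included Omt2b, Omt2a (5296 and 5142 TPM), Fbxw28 (3601 and 4183 TPM) and Rfpl4 (2829.5 and 2757 TPM), the antiviral-like genes Oas1h (2064 and 2202 TPM), Oas1e (1095 and 1279.8 TPM) and Oas1d (839 and 957 TPM), Bcl2l10 (1172 and 1348 TPM), Oog1 (414 and 456 TPM), Uchl1 (267 and 218 TPM) and Tdrd12 (185 and 153 TPM). Oog1 shared 78.0% of its 100-base stretches with other genes, and its level is uncertain.

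**Figure D3:**
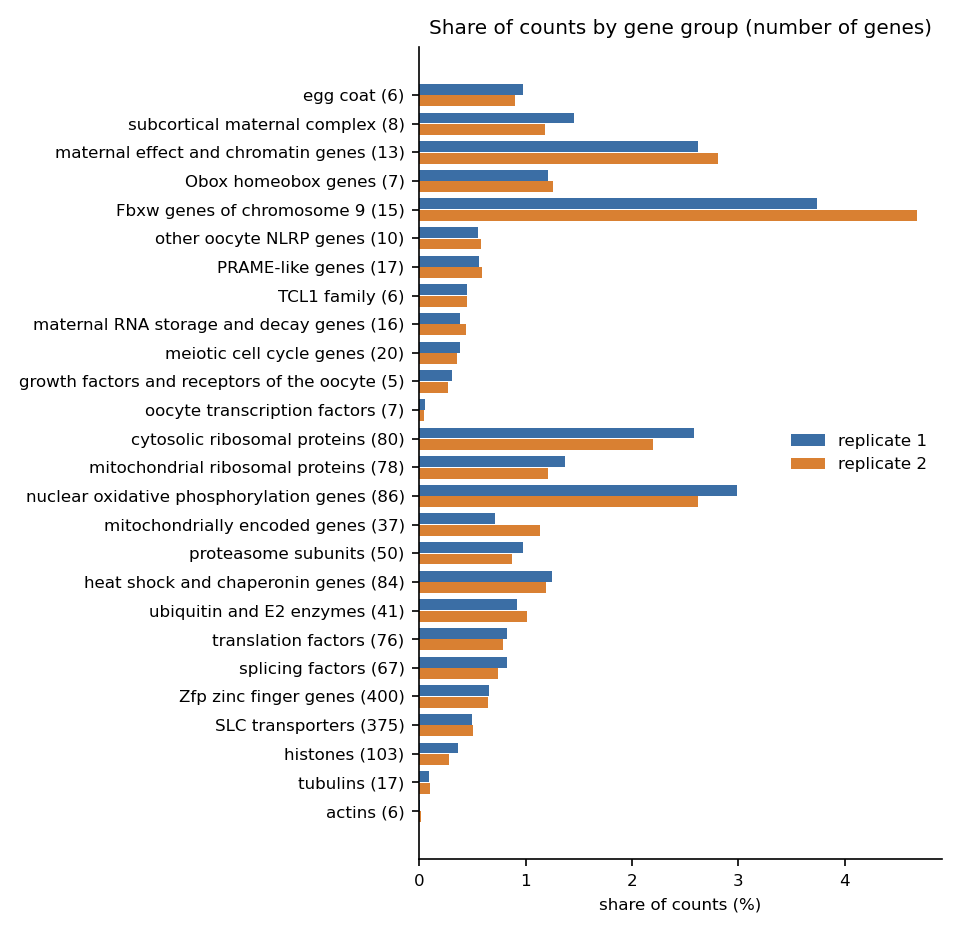
Share of counts (%) held by 26 of the gene groups, those of the oocyte and of general cell functions, in replicate 1 (blue bars) and replicate 2 (orange bars), with the number of genes in brackets. The 15 Fbxw genes of chromosome 9 hold the longest bars of those drawn, at 3.74% and 4.68%, and the actins the shortest.

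Counts were also summed by chromosome region. Of 2663 windows of 1000000 bases that hold a gene, the one with the most counts lay at chr9:109000001-110000000 and held 3.78% and 4.72% of counts. It was followed by chr9:78000001-79000000 with 2.05% and 1.87%, where Ooep, Omt2a, Omt2b and Dppa5a lie. Next came chr16:58000001-59000000 with 1.68% and 1.72%, nearly all from Gm813 and E330017A01Rik, and chr7:15000001-16000000 with 1.28% and 1.26%, where the Obox genes lie. Chromosome 9 as a whole held 10.5% and 11.2% of counts with 5.60% of the detected genes.

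The leading window is the Fbxw cluster, a run of F-box genes at chr9:109139447-109790670 on the minus strand. F-box proteins choose the substrates of SKP1-cullin ubiquitin ligases. This group was named after its values had been seen. All 15 genes were detected and all 15 were among the 1000 genes with the highest TPM, from 289.6 and 347 TPM for Fbxw25 to the value of Fbxw24. The 8 that were in the first 100 were Fbxw24, Fbxw15, Fbxw18 (3663 and 4391 TPM), Fbxw28, Fbxw14 (3332 and 4354 TPM), Fbxw16 (2499 and 3377 TPM), Fbxw27 (1848 and 2268 TPM) and Fbxw21 (1840.4 and 2178 TPM). The 6 other annotated genes inside the run had at most 0.923 TPM, and the genes on either side, Plxnb1 and Spink8, had mean levels of 0.630 and 5.43 TPM. High levels in this stretch of the chromosome were therefore held by the Fbxw genes.

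The cluster held 3.74% and 4.68% of counts, and all 15 genes had a higher TPM in replicate 2. Over all detected genes, 7157 of 13325 had a higher CPM in replicate 2. These 15 are neighbours related in sequence, so they are not independent observations. The 64 F-box genes elsewhere in the genome held 0.113% and 0.120%, and their highest level was 54.8 TPM (Fbxo34). Start regions of 11 of the genes were compared in pairs by global alignment, and their identity ranged from 48.7% to 97.3% with a median of 87.0% over 55 pairs. The pairs with Fbxw23, annotated as a pseudogene, lay between 48.7% and 53.7%, and all other pairs between 74.7% and 97.3%. For scale, the start regions of Fbxw24 and Zp3 were 51.0% identical. The start regions of Fbxw24 and Fbxw15, printed above, were 90.7% identical. The start regions of Fbxw14 and Fbxw28 were the 97.3% pair, and their transcripts shared 39.2% and 42.3% of their 100-base stretches, so the split between these genes is uncertain, whereas Fbxw24 and Fbxw25 shared none. Among the 13 regions of the cluster in the table, which are related in sequence, 13 held an E-box and 0 held TATAAA or TAATTG, and the shares over detected genes given above are the background for these counts.

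**Figure D4:**
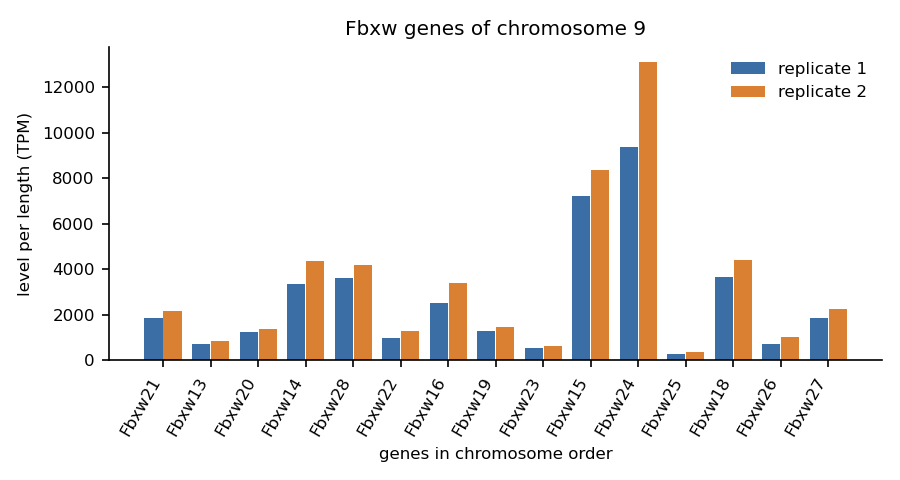
Levels (TPM) of the 15 Fbxw genes of chromosome 9 in chromosome order, replicate 1 in blue and replicate 2 in orange. Bars range from Fbxw25 to Fbxw24, and the orange bar is the taller in all 15 genes.

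A list of 11 genes of ubiquitin ligases, chosen after values were seen, held 2.65% and 2.86% of counts, of which Elobl gave 0.663% and 0.690% and Ubb 0.623% and 0.736%. Among the partners of F-box and elongin proteins in this list, Skp1a, which links F-box proteins to cullin 1, was at 4474 and 5979.6 TPM, elongin C (Eloc) at 2379 and 2140.2 TPM, the RING subunit Rbx1 at 1103 and 869 TPM and Cul1 at 349 and 375 TPM. Elob, the widely used elongin B gene, was at only 9.03 and 10.6 TPM, far below Elobl. The elongin cullins Cul5 and Cul2 were at 68.6 and 63.3 TPM and 2.57 and 2.52 TPM.

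Unnamed genes, those whose symbol is a Gm number, a Rik name or a clone or accession name, or that have no symbol here, held 15.3% and 15.3% of counts (15.3% ± 0.0487, SD, n = 2). Gm-numbered genes held 9.806% and 9.995%, Rik-named genes 3.55% and 3.44%, clone-style names with those lacking a symbol the rest. Many of these transcripts are short, and their share of TPM was larger, at 27.9% and 27.9%. They made up 32944 of all 56691 genes and 2771 of the 13325 genes at 1 CPM in both libraries. Among the genes with the highest TPM they were 7 of the first 20 and 23 of the first 100. Of the 23, 5 were protein coding, 13 long noncoding and 5 pseudogenes. By counts, unnamed long noncoding genes held 7.68% in both libraries, unnamed protein-coding genes 4.69% and 4.71%, and unnamed pseudogenes 2.25% and 2.36%.

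The 15 unnamed genes with the highest TPM ran from Gm813 at rank 2 to AA545190 at rank 63. The leading pair, Gm813 (ENSMUSG00000075002, chr16:58613675-58616978) and E330017A01Rik (ENSMUSG00000055789, chr16:58635167-58638739), are 4-exon genes on the minus strand that lie 18189 bases apart with coding sequences of 531 and 579 bases including the stop codon. Their counts were 341674 and 270273 for Gm813 and 253594 and 212707 for E330017A01Rik. Together they gave 99.1% of the counts of their 1000000-base window.

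Of the other 13, 10 are annotated as long noncoding RNA (lincRNA or antisense). Gm3143 lies at chr3:34699640-34716662, Gm13180 at chr2:3855030-3877575 and Gm36159 at chr7:24448354-24451327. 1700018B24Rik (chr3:48605732-48609102) was at 4965 and 4684 TPM, Gm42817 (chr5:128336777-128342778) at 4909 and 4679.6 TPM and Gm16497 (chr12:14261534-14285725) at 3670.4 and 3754 TPM. Gm16497 is the longest of the 15, with 3010 exon bases, and held 0.593% and 0.608% of counts. AC132133.2 (3222 and 3000.2 TPM), Gm47272 (2855 and 3081 TPM), Gm43269 (2867 and 2863 TPM) and AA545190 (2331 and 2469 TPM) completed them. The antisense partners of Gm42817, Gm47272 and Gm36159, which are Tmem132d, Atp9b and Irgc1, had mean levels of 1.65, 0.532 and 0.616 TPM. The use of strand in counting is not known, so reads of a gene and its partner cannot be told apart there.

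The remaining unnamed genes of this set were sequence relatives of named genes. Gm1821 shared stretches mainly with Ubb, Gm8797 (2794 and 3580.4 TPM) shared 56.5% with Gm1821, and Gm5776 shared 55.0% with Mrps33, a mitochondrial ribosomal protein gene at 2461 and 2614 TPM. Their levels cannot be separated from those relatives by these counts. Widely studied long noncoding RNAs were low beside the leading unnamed ones, which were picked for their high TPM. The list of widely studied genes had a median of 3.52 TPM, and all unnamed genes together a median of 0 TPM. Malat1, the nuclear speckle RNA, was at 46.9 and 51.9 TPM and Gas5 at 48.6 and 43.4 TPM, and the 12 genes of that list held 0.0309% and 0.0350% of counts.

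Genes for protein synthesis and energy held shares in the range of the larger oocyte groups. The 80 cytosolic ribosomal protein genes held 2.58% and 2.20% of counts (2.39% ± 0.269, SD, n = 2), less than the 15 Fbxw genes. Pseudogene copies are left out of this list, so counts on them are not in this share. Among them is Gm15500, with 0.106% and 0.108% of counts. The highest were Rpl35 (3672 and 3455 TPM) and Rpl19 (2326 and 1762 TPM). Rpl35 shared 70.2% of its stretches with other genes, mostly the overlapping Wdr38, and Rpl19 shared 43.3%, mostly with its pseudogene Rpl19-ps11, so both levels are uncertain. The list had a median of 147 TPM, so most of its members were far below its top.

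Mitochondrial ribosomal proteins (78 genes, 1.37% and 1.21% of counts) were led by Mrps33, Mrps18c (1916 and 1640.3 TPM) and Mrps21 (1619.6 and 1342 TPM). Nuclear genes of oxidative phosphorylation (86 genes) held 2.99% and 2.62%, with Cox7a2 at 4988 and 4201 TPM, Atp5k at 4516 and 3805 TPM and Uqcrh at 2708 and 2515 TPM. Each of these 3 lists held a smaller share of counts in replicate 2. The 50 proteasome genes held 0.973% and 0.876% (Psma2 highest, 990.2 and 984 TPM), the 76 translation factors 0.824% and 0.788% (Eif3k, 1038 and 645 TPM), the 67 splicing factors 0.824% and 0.742% (Snrpd1, 1458 and 1202 TPM) and the 84 heat shock and chaperonin genes 1.25% and 1.19% (Hsp90aa1, 2808 and 2647 TPM). Hsp90aa1 shared 31.6% of its stretches with Gm12346 and further stretches with other genes, so its level is uncertain.

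The actin, tubulin, kinesin and histone lists each held a small share of counts. A small share of a list does not make each member low, and H1foo reached 4163 and 2721 TPM. The 6 actins held 0.0110% and 0.0154% of counts, with Actb, a common reference gene, at 47.7 and 41.2 TPM. The 17 tubulins held 0.0952% and 0.0990%, with Tubb4b highest at 269 and 330.3 TPM, and the 45 kinesins 0.165% and 0.162% with Kif2c at 96.5 and 104 TPM. The 103 histone genes held 0.369% and 0.283%, of which H1foo was the largest member and H3f3b followed at 393 and 428 TPM, and only 17 reached 1 CPM in both libraries. The methods describe capture of polyadenylated RNA, and most replication-dependent histone RNAs lack a poly(A) tail. Whether this bears on the histone values was not tested. Large families with a low median level were the Zfp zinc finger genes (400 genes, 251 detected, median 1.07 TPM, 0.658% and 0.650%) and the SLC transporters (375 genes, 169 detected, median 0.431 TPM, 0.500% and 0.505%). For scale, 10641 of 21871 protein-coding genes and 13325 of all 56691 genes were detected in both libraries at 1 CPM. The 41 ubiquitin and E2 enzyme genes held 0.919% and 1.01% (Ubb highest, 0.623% and 0.736%), the 58 USP deubiquitinases 0.313% and 0.292% (Usp46 highest, 165 and 177 TPM), and the 68 tripartite motif genes 0.267% and 0.277% (Trim61 highest, 1068 and 1106 TPM). The 39 cyclins and CDKs held 0.248% and 0.252% (Ccnb1 highest, 432 and 425 TPM), the 73 RAB GTPases 0.163% and 0.167% (Rab7 highest, 310.0 and 315 TPM) and the 53 DEAD and DEAH box helicases 0.159% and 0.153% (Ddx18 highest, 353 and 253 TPM). Of 1407 olfactory receptor genes, 32 reached 1 CPM in both libraries, led by Olfr976 at 98.2 and 99.7 TPM.

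The 37 genes of the mitochondrial genome held 0.708% and 1.14% of counts (0.923% ± 0.304, SD, n = 2), a difference of 1.61-fold between the libraries. The 13 messenger RNAs were all higher in replicate 2, as were 7157 of all 13325 detected genes by CPM. They ranged from 151 to 4235 TPM by mean and were led by mt-Atp8 (3641 and 4829 TPM), mt-Cytb (1996 and 3171 TPM) and mt-Co2 (1576 and 2109.7 TPM). The lowest was mt-Atp6, and the range and order rest on how reads were assigned between these genes and their nuclear copies, which are described next. Of the ribosomal RNAs, mt-Rnr2 was at 2537 and 3678 TPM and mt-Rnr1 at 607 and 1042 TPM.

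A copy of part of the mitochondrial genome lies on chromosome 1, where 7 unnamed genes are annotated that share sequence with mitochondrial genes. Gm28437 shares all its 100-base stretches with mt-Co3, and the counts were 21444 and 24354 for the copy and 20816 and 24929 for mt-Co3. For Gm28661 and mt-Co2 they were 21052 and 21625 and 20669 and 22000. Such near-equal counts for a copy and its original were found in both libraries. For Gm10925 and mt-Atp6 the copy had more, 15398 and 20259 against 1605 and 1866, and for Gm29216 and mt-Co1 it had fewer, 6577 and 8947 against 31642 and 51121. The 7 genes held 0.191% and 0.285% of counts, and with them the mitochondrial share was 0.899% and 1.42%. The methods state that uniquely mapped reads were kept, and how reads of such copies were assigned was not tested. A nuclear example of the same kind is the processed pseudogene Gm15500, identical to Rpl5 over 99.9% of its stretches, with 37969 and 30749 counts beside 45499 and 35363 for Rpl5.

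Markers of follicle cells were low. Of the 13 cumulus and granulosa markers, 4 reached 1 CPM in both libraries, against 10641 of 21871 protein-coding genes. The 13 cumulus and granulosa markers together held 0.00306% and 0.00385% of counts, and the highest, the aromatase gene Cyp19a1, was at 9.09 and 8.37 TPM. Inha was at 1.63 and 5.47 TPM and Fshr at 2.28 and 1.97 TPM, while Amh and Amhr2 had 0 counts in both libraries and Foxl2 had 2 and 0. Of 4 theca markers, Star was highest at 1.10 and 1.64 TPM and Cyp17a1 had 0 counts. The 3 liver markers had at most 0.316 TPM, the endothelial marker Pecam1 was at 21.3 and 18.4 TPM while Vwf and Cdh5 were below 1 TPM, and of 3 sperm markers only Prm2 had counts (42.0 and 25.2 TPM). Summed over each list, theca markers held 0.000521% and 0.000557% of counts, endothelial markers 0.00729% and 0.00672% and sperm markers 0.00202% and 0.00121%.

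Red blood cell genes were an exception in replicate 2. The 5 genes held 0.00125% of counts in replicate 1 and 0.552% in replicate 2. Hba-a1 was at 8.22 and 4494 TPM, Hba-a2 at 8.91 and 3614 TPM, Hbb-bs at 9.57 and 3221 TPM and Hbb-bt at 4.08 and 2167 TPM, all globin chains of haemoglobin, and Alas2, the haem synthesis enzyme of erythroid cells, at 0.152 and 84.2 TPM. The 5 heart and muscle genes followed the same split at lower levels (1.68e-05% and 0.00797% of counts), with 2 and 1312 counts of the cardiac myosin Myh6, 4 and 483 of Tnnt2 and 0 and 436 of Actc1. The 5 leukocyte markers held 0.00167% and 0.00445%, and among them Lyz2 was at 12.2 and 30.6 TPM and Cd74 at 1.46 and 8.32 TPM. All 4 globin genes were among the 1000 highest mean TPM through replicate 2 alone, and no such rank applies to replicate 1. Their part in other differences between the libraries was not tested. In pools such as these, fewer cells of another type and less RNA per cell cannot be told apart.

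**Figure D5:**
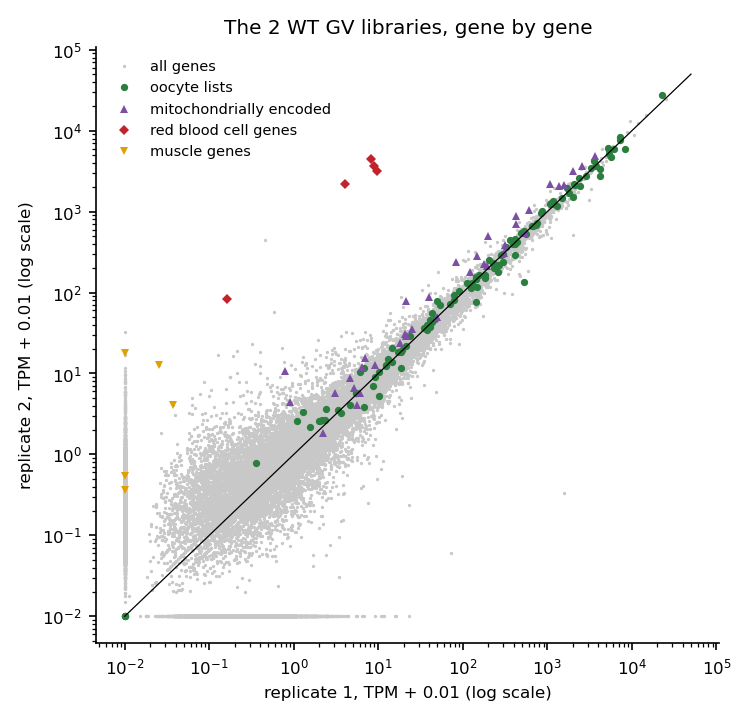
Level of each gene in replicate 2 against replicate 1, in TPM plus 0.01 on log axes, with the line of equality in black. Oocyte-list genes (green) lie along the line, mitochondrially encoded genes (purple) lie mostly above it, and the red blood cell genes (red) and muscle genes (yellow) lie far above it.

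Over the 7095 genes with a mean of at least 10 CPM, the log2 ratio of replicate 2 to replicate 1 had an SD of 0.61 (0.56 without the 5 red blood cell genes), and Pearson's r of log2 CPM was 0.941 and Spearman's rho 0.943, across genes that are not independent replicates. The share of genes that differed more than 2-fold fell with level. Between 10 and 100 CPM it was 3.88% of 5519 genes, between 100 and 1000 CPM 1.69% of 1422, and at 1000 CPM or more 1 of 154. Between 1 and 10 CPM it was 24.3% of 7787 genes, and genes below 1 CPM were not counted.

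Among genes with a mean of at least 100 TPM, the 5 with the largest excess in replicate 2 were Spp1, a secreted phosphoprotein (0.443 and 444 TPM), and the 4 globin genes. The 5 with the largest excess in replicate 1 were Gm10774 (1562 and 0.322 TPM), a processed pseudogene, the respiratory chain gene Ndufa11 (384 and 96.3 TPM), Khdc3, Rpl41 (1989.8 and 519 TPM) and Mapkap1 (174 and 51.4 TPM). Gm10774 had 6110 and 1 counts, and its value rests on replicate 1 alone. For these 10 genes the mean describes neither library.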

How the data were processed

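Members, gene lists and groups were chosen with earlier results of these data known, so no list is independent evidence, and no test was run. The authors deposited a table of raw counts with a row for each gene and 12 columns, of which the 2 WT_GV columns were used. According to the methods, the authors added ERCC RNA, made full-length cDNA from pooled oocytes by a SMART-seq type protocol with PCR, trimmed with Cutadapt, aligned with Hisat2 to GRCm38 and kept uniquely mapped reads. The extraction text of the labels describes a bulk dUTP preparation instead, so the protocol is not settled. The submitters' processing notes list cutadapt 1.9, HISAT2 2.0.4 and StringTie 1.3.4d. Annotation release, strand and the counting step are not given in the sources used here. Reads amplified by PCR carried no molecular identifiers, so a count is not a molecule.

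Symbols, positions and exon lengths came from GENCODE M21 (GRCm38) and matched 52073 of 56691 genes (91.9%). Genes without a match held 0.618% and 0.565% of counts. CPM used counts on mouse genes, and TPM was computed here from counts and summed exon length, without correction for fragment length. Log2 ratios used a pseudocount of 0.1 CPM. Shared sequence was the share of 100-base stretches of a gene's transcripts found in transcripts of another gene, a step checked on simulated sequences. Named genes were the 20 highest by TPM, the 10 highest by counts, the 15 highest unnamed genes, oocyte-list genes among the first 1000, leading members of each family, leading markers of other cells and the 5 largest differences each way among genes of at least 100 TPM. Python 3.11.15, pandas 2.3.3 and Biopython 1.88 were used. Alternatives were TPM, the longest transcript, ERCC in the total, no mitochondrial genes, other detection limits and each library alone. A few genes that the naming rule would take are not reported here.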

Additional observations from a re-analysis of the deposited data

How the results depend on the processing

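No paired analysis was possible because only 1 group of 2 libraries was described and no test was run. With TPM in place of counts, the 20 most abundant genes held 19.2% in place of 13.7%, the oocyte lists 13.2% in place of 11.2%, unnamed genes 27.9% in place of 15.3%, mitochondrially encoded genes 2.00% in place of 0.923% and cytosolic ribosomal protein genes 2.86% in place of 2.39%, and 158 genes in place of 308 held 50%. With the length of the longest transcript in TPM the shares were 17.5%, 12.1%, 24.8%, 1.65% and 3.75% in the same order. Counting the ERCC sequences in the total gave 11.1% for the oocyte lists and 15.1% for unnamed genes, and leaving out mitochondrially encoded genes gave 11.3% and 15.4%, shifts of under 0.2 percentage points that exceed a very small spread between libraries. Genes detected in both libraries numbered 6599 at 10 CPM and 20539 at 1 count, in place of 13325 at 1 CPM. The SD of the log2 ratio between libraries was 0.61, and it was 0.60 at a minimum of 100 CPM and 0.98 at 1 CPM, while scaling to ERCC totals shifts every gene alike and left it at 0.61. Chosen after seeing the data, leaving out the 5 red blood cell genes gave 0.56, and leaving out the 7 genes of the chromosome 1 copy gave 15.0% for unnamed genes. Each library alone gave 13.2% to 14.2% for the 20 leading genes, 11.1% to 11.3% for the oocyte lists, 15.3% and 15.3% for unnamed genes, 0.708% to 1.14% for mitochondrially encoded genes, 2.20% to 2.58% for cytosolic ribosomal protein genes, 14013 to 15229 detected genes and 298 to 310 genes for 50% of counts. Depth limits the low genes first, and the number of molecules behind the counts is not known.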

Other observations

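Transcripts of genes known from other cells were present at measurable levels in both WT_GV libraries. The immunoglobulin lambda constant genes Iglc3 (1030.1 and 859 TPM) and Iglc2 (435 and 418 TPM) were among the 1000 highest by TPM, with Ighg2b at 82.4 and 77.1 TPM, Ighg1 at 60.7 and 63.2 TPM and Ighm at 39.8 and 43.6 TPM, whereas Igkc was at 10.5 and 10.8 TPM and Ighe had 0 counts. The 5 leukocyte markers, among them Lyz2 (12.2 and 30.6 TPM), Cd74 (1.46 and 8.32 TPM), Ptprc (0.407 and 0.885 TPM) and Cd3e (0.665 and 0.643 TPM), had counts in both libraries, and their part in these values was not tested. The immunoglobulin list of 13 genes was taken by its annotated class after values were seen, and held 0.0667% and 0.0627% of counts. Iglc2 and Iglc3 shared no 100-base stretch with another annotated gene.

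The PRAME-like list of 17 genes, also chosen after values were seen, held 0.560% and 0.589% of counts. Oog3 (1996 and 2241 TPM), Oog4 (1956 and 2073 TPM), Oog1, Pramef12 (381 and 286 TPM), Oog2 (237 and 229 TPM) and Pramef20 (158 and 144 TPM) were among the 1000 highest, Pramef8 and Pramef17 were below 10 TPM, and the other 9 had 0 counts in both libraries. Of these, Pramel4 shared 77.4% and Pramel3 62.1% of their stretches with other genes. How reads of shared stretches were assigned is not known, so a count of 0 says less for them. For scale, 30516 of all 56691 genes had 0 counts in both libraries, so the 9 are no trait of this list. Genes that write, read or remove the RNA mark m6A (10 genes) held 0.0559% and 0.0719% of counts with a median of 8.59 TPM, with the writer subunit Wtap at 61.2 and 84.5 TPM, the eraser Alkbh5 at 46.6 and 66.1 TPM, the writer Mettl3 at 12.6 and 9.74 TPM and the eraser Fto at 0.460 and 0.559 TPM.

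Genes with at least 10 CPM in one library and at least 10 times their CPM in the other numbered 46 for replicate 2 and 10 for replicate 1. Beside the globin and heart genes, those higher in replicate 2 included the platelet genes Ppbp (0 and 538 counts) and Itga2b (7 and 469) and the collagen genes Col1a1 (28 and 531) and Col3a1 (18 and 450). Those higher in replicate 1 included Gm10774, Ccno (3519 and 2 counts) and the basophil protease gene Mcpt8 (446 and 0).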
